A study of Arabidopsis thaliana with 4 samples.

Results

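The protein phosphatase 2C (PP2C) family of Arabidopsis thaliana was followed outside clade A, the clade of the core abscisic acid (ABA) co-receptors, in shoots treated with ABA. The members were 60 family loci listed by family membership, with earlier results of these data already known. The array annotation named a probe set for 29 of the 60 loci, 1 probe set each, among 11371 named genes in all. The other 31 loci were not analysed here, and these include AT5G27930, 1 of 3 loci of the growth-regulating group of clade E. Clades were assigned from the published classification of the family. By clade, the measured members were 6 of 12 in E, 2 of 2 in I, 2 of 4 in B, 1 of 4 in C, 2 of 9 in D, 7 of 12 in F, 3 of 5 in G, 3 of 3 in H and 1 of 4 in K, with 2 of 5 loci left without a clade.

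PP2C enzymes remove phosphate from serine and threonine in proteins and need magnesium or manganese to do so. Clade A enzymes hold back the SnRK2 kinases until ABA bound to its receptors blocks them, and several clade A genes are themselves known to be induced by ABA. Outside clade A, clade B enzymes act on mitogen-activated protein kinases, clade D enzymes on the plasma membrane proton pump during cell expansion, and the growth-regulating group of clade E restrains growth when water is short.

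Both groups were wild-type Col-0 seedlings, 14 days old, raised without microbes on upright plates in 24 h light. The ABA group was covered for 5 min with 100 uM ABA in a liquid of basal salts and 0.1% Tween 20, a wetting agent, and the mock group with mock solution. Shoots were collected 4 h later, and each of 2 biological replicates per group was a pool of 20 to 24 shoots on a 1-colour array of its own. A pooled shoot mixes cell types, so more RNA per cell and more cells of a type cannot be told apart.

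The values are processed intensities on a linear scale in arbitrary units. Intensities of different probe sets are not levels that can be set against each other, so each change was taken within a gene. For a few pairs of genes these changes were then compared. Fold changes were taken on log2(intensity + 16), and the constant makes the change of a dim gene look smaller than it was. The median of all 19371 tested probe sets moved by -0.13 on this scale as deposited and by -0.0048 after quantile normalization, so the change of each member is given with both scalings. The tissue label was checked against 7 named green shoot markers, whose mean intensities lay between 498 and 1684. Of these markers 6 were called lower after ABA and 0 higher as deposited, against 19.6% and 3.97% of all probe sets. All 7 lay in the brightest of 5 equal parts of the array, where 36.3% were called lower. After quantile normalization 2 were lower (5.22% of all probe sets). LHB1B2 went the other way without passing, at 1331 and 1238 in ABA and 1095 and 1192 in mock shoots (log2 change 0.17, and 0.48 after quantile normalization). The 7 markers summed to 6928 and 6735 on the ABA arrays against 9362 and 10130 on the mock arrays. Of 3 named root markers, AT3G54580 and EXPA7 had means of 7.13 and 0.960, below the lowest noise level of an array (7.54), while PYK10, also known from hypocotyls, averaged 112 in ABA and 300.1 in mock shoots. The root markers summed to 111 and 128 on the ABA arrays against 329 and 288 on the mock arrays, a sum that is nearly all PYK10. PYK10 was called lower as deposited (log2 change -1.30, limma adjusted p = 0.0236) and after quantile normalization (-1.05, limma adjusted p = 0.0465). AT3G54580 did not pass as deposited, and EXPA7 was called higher as deposited (limma adjusted p = 0.0491) at intensities of 1.75 or less. The part of either marker set in the results below was not tested.

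Of the 29 measured members, 3 rose and 6 fell after ABA at a Benjamini-Hochberg adjusted p under 0.05 (limma, adjusted over all tested probe sets), and 20 did not pass. AT3G05640 and AT3G16800, both of the growth-regulating group of clade E, and AT4G31860 of clade I rose, with changes of 2.11, 1.09 and 1.72 on the log2 scale. The falls were small, between -0.27 and -0.62, and lay in clades D, F, G, I and K and in 1 locus without a clade. Over all tested probe sets, 3.97% were called higher and 19.6% lower, against 10.3% and 20.7% of the members, so the share of members called lower was near that of the whole array. The median change of the members was -0.18, and that of all probe sets was -0.13.

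**Figure D1:**
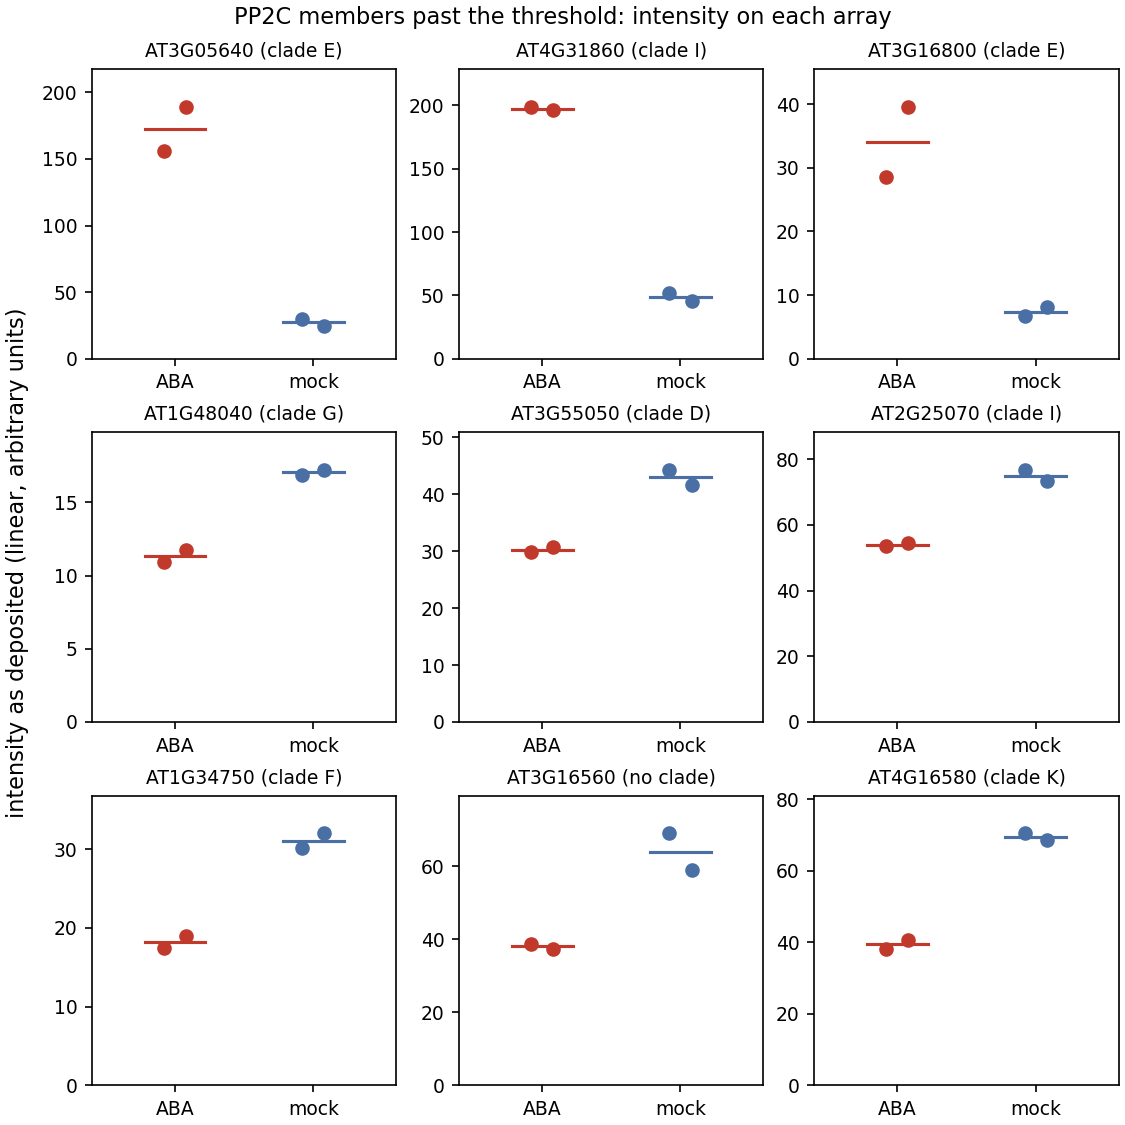
Intensity as deposited (linear, arbitrary units, each panel with its own axis from 0) on the 2 ABA and 2 mock arrays for the 9 members past the threshold. Points are arrays and bars are group means; in every panel the groups are apart, with AT3G05640 at 156 and 189 in ABA shoots and at 30.2 and 24.6 in mock shoots.

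The split between higher and lower calls depended on how the arrays were scaled. After quantile normalization 3 members were higher and 1 was lower, with 4.6% of all probe sets higher and 5.22% lower. Median centring gave 4 higher and 1 lower (9.69% and 12.5% of all probe sets), and scaling to 9 spiked control sets gave 3 higher and 14 lower (2.68% and 42.2%). The members AT3G05640, AT3G16800 and AT4G31860 were called higher and AT4G16580 was called lower under all 4 scalings. The sign of the change depended on the scaling in 14 members, was negative under all 4 in 12 and positive under all 4 in 3. Leaving out any 1 of the 4 arrays left 0 of the 19371 probe sets called in limma, and so 0 members, where 9 to 11 members had an unadjusted p under 0.05 (12 with the full set of arrays).

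**Figure D2:**
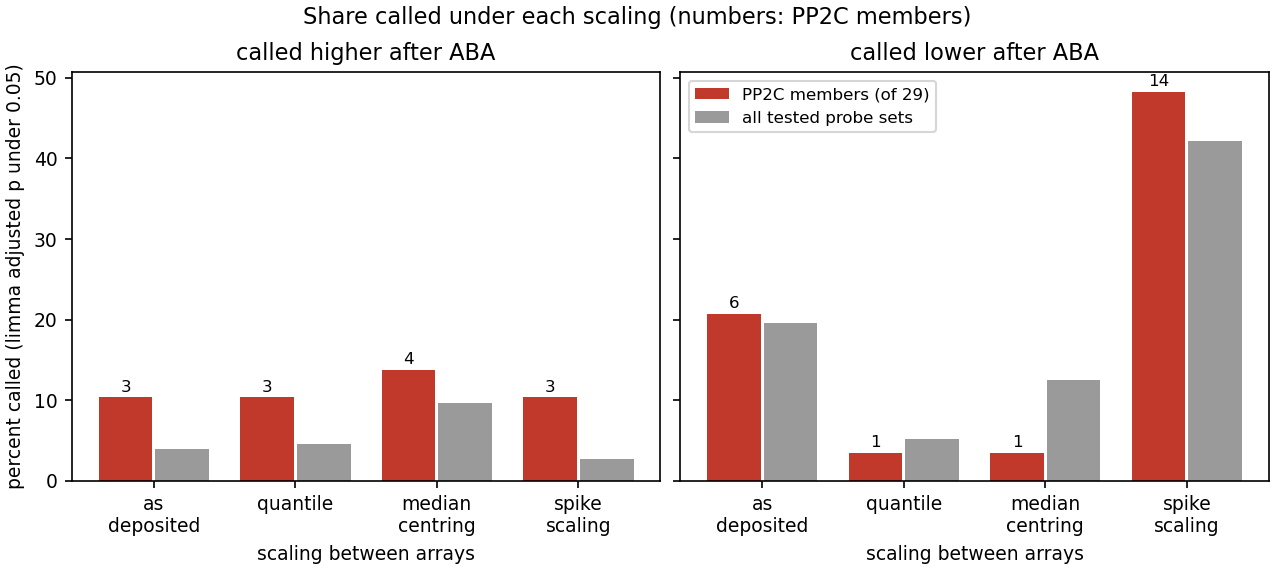
Percent of the 29 PP2C members and of all tested probe sets called higher (left) or lower (right) after ABA under each scaling between arrays, with the number of members above its bar. The count of members called higher stays at 3 or 4, while the count called lower runs from 1 to 14.

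AT3G05640, of the growth-regulating group of clade E, had the largest change among the members. Its intensity was 156 and 189 in ABA shoots, against 30.2 and 24.6 in mock shoots. Both ABA arrays lay far above both mock arrays, and the gap between the groups was several times the gap between replicates. The means were 172 ± 23.4 and 27.4 ± 3.91 (SD, n = 2 arrays each), a 6.29-fold difference in mean intensity. On the log2 scale the change was 2.11 (SE 0.13, 95% interval 1.66 to 2.57, limma adjusted p = 0.0194), and after quantile normalization it was 2.36 (limma adjusted p = 0.0293). It ranked 75th from the top among the 19371 tested probe sets. Its size followed the added constant, at 2.61 with 1 and 1.37 with 64 in place of 16.

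AT3G16800, the other measured locus of this group, had 28.5 and 39.5 in ABA shoots, against 6.75 and 8.09 in mock shoots. Its mock values lay below the noise level of their own arrays (7.64 and 8.34, the absolute value of the 1% quantile over tested probe sets), and its ABA values lay above that level. Taking the noise level of each mock array as its lowest readable value, the geometric mean intensity as deposited was at least 4.21-fold higher after ABA. This bound holds for the deposited scaling only, and it leaves out the spread between replicates. The measured means were 34.0 ± 7.79 in ABA and 7.42 ± 0.949 in mock shoots (SD, n = 2 arrays each), with a log2 change of 1.09 (95% interval 0.61 to 1.56, limma adjusted p = 0.0362). After quantile normalization the change was 1.28 (limma adjusted p = 0.0434), and with constants of 1 and 64 it was 2.04 and 0.45. The changes of the 2 loci differed by 1.03 on the log2 scale. An exact two-sided permutation test of that difference over the 4 arrays gave p = 0.333, the smallest p the design allows. The size of the difference followed the added constant. With a constant of 1 the changes of AT3G05640 and AT3G16800 were 2.61 and 2.04, and with 64 they were 1.37 and 0.45. Because the mock values of AT3G16800 lay below the noise level, these values do not show whether the 2 loci changed by different folds.

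None of the 4 other measured clade E loci passed the threshold as deposited or after quantile normalization, and the ABA and mock arrays overlapped in all 4. They were dim, with means over the 4 arrays of 4.92 to 10.7. AT4G32950 read 7.11 and 12.1 in ABA shoots, against 7.14 and 7.90 in mock shoots. AT1G79630 read 13.0 and 10.1 in ABA shoots, against 10.9 and 8.96 in mock shoots. AT1G16220 had the widest spread, at 8.08 and 0.490 in ABA shoots, against 8.05 and 11.3 in mock shoots. Its log2 change of -0.36 had a 95% interval of -1.19 to 0.46, and after quantile normalization it was -0.26. AT5G26010 stayed below the noise level on every array. The log2 changes of AT4G32950, AT1G79630 and AT5G26010 were 0.11, 0.09 and -0.07 as deposited, and 0.24, 0.24 and -0.01 after quantile normalization.

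**Figure D3:**
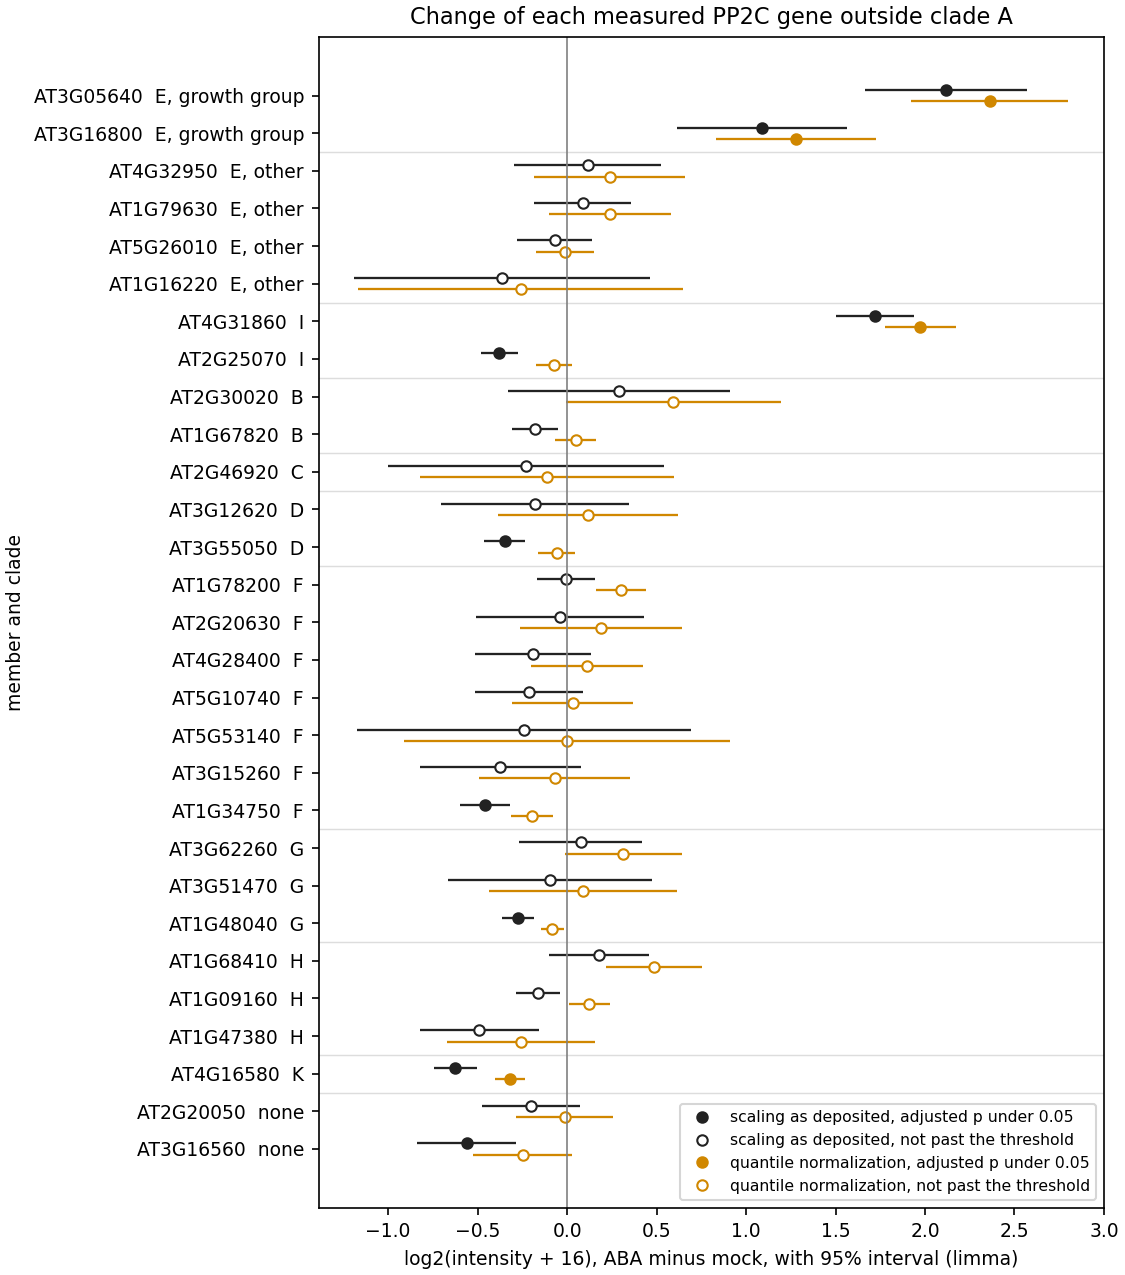
Change of each of the 29 measured members on the log2(intensity + 16) scale, ABA minus mock, with its 95% interval from limma, grouped by clade, for the deposited scaling (black) and quantile normalization (orange). Filled points passed an adjusted p of 0.05; AT3G05640, AT4G31860 and AT3G16800 stand at 2.11, 1.72 and 1.09 as deposited, and the other 26 members lie between -0.62 and 0.29.

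The pair of clade I genes moved apart as deposited. AT4G31860 had 199 and 196 in ABA shoots, against 52.1 and 45.6 in mock shoots. These replicates were close and the groups were far apart, with a log2 change of 1.72 (SE 0.065, limma adjusted p = 0.0169). Mean intensity was 4.04-fold higher after ABA, and the change ranked 117th from the top of all tested probe sets. The probe set name of AT4G31860 marks it as able to bind related transcripts, but the transcripts concerned were not given in the sources used here.

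AT2G25070, the other clade I gene, had 53.5 and 54.6 in ABA shoots, against 76.7 and 73.3 in mock shoots. Both ABA arrays lay below both mock arrays, and the log2 change was -0.38 (95% interval -0.48 to -0.28, limma adjusted p = 0.0226). After quantile normalization this became -0.07, short of the threshold (limma adjusted p = 0.248), while AT4G31860 stood at 1.97 (limma adjusted p = 0.0243). The gap between the 2 log2 values, AT4G31860 minus AT2G25070, came to 1.63 and 1.59 in ABA shoots, against -0.44 and -0.54 in mock shoots. Their changes thus differed by 2.10, and the same number follows under median centring because a constant per array cancels. The exact two-sided permutation p was 0.333, again the smallest possible with 4 arrays. It was fixed beforehand, since the groups of the 2 genes lay apart in opposite directions as deposited.

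AT4G16580, the 1 measured clade K gene, fell under each of the 4 scalings. Its intensity was 38.2 and 40.7 in ABA shoots, against 70.5 and 68.5 in mock shoots. The groups were well separated, with means of 39.5 ± 1.77 in ABA and 69.5 ± 1.40 in mock shoots (SD, n = 2 arrays each). The log2 change was -0.62 (95% interval -0.74 to -0.50, limma adjusted p = 0.0182). After quantile normalization it was -0.32 (limma adjusted p = 0.0341). AT3G16560, a locus without a clade here, read 38.8 and 37.4 in ABA shoots, against 69.1 and 58.9 in mock shoots. Its log2 change was -0.56 as deposited (limma adjusted p = 0.0417) and -0.25 after quantile normalization (limma adjusted p = 0.186).

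A further 3 falls passed as deposited but not after quantile normalization. AT1G34750, of clade F, read 17.5 and 19.0 in ABA shoots, against 30.1 and 32.0 in mock shoots. Its log2 change was -0.46 as deposited and -0.20 after quantile normalization (limma adjusted p = 0.0245 and 0.0781). AT3G55050, of clade D, the clade that acts on the proton pump, read 29.8 and 30.8 in ABA shoots, against 44.2 and 41.7 in mock shoots. Its changes were -0.35 and -0.06 (limma adjusted p = 0.0272 and 0.330). AT1G48040, of clade G, read 10.9 and 11.7 in ABA shoots, against 16.9 and 17.2 in mock shoots, with changes of -0.27 and -0.08 (limma adjusted p = 0.0260 and 0.114). In all 3 genes the ABA arrays lay below the mock arrays, as in 50.8% of all probe sets, with little spread between replicates.

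These falls can be read against probe sets of the same brightness. The array was ranked by mean intensity and divided into 5 equal parts, and 23 of the 29 members lay in the third and the fourth part. In the third part 2 of 12 members were called lower, against 19% of all probe sets there, and in the fourth part 4 of 11 members, against 36.2%. In the brightest part 0 of 4 members were called lower, against 36.3%. These 4 include AT3G05640 and AT4G31860, which were called higher and reached this part only through their ABA values. Their mock means were 27.4 and 48.8, while the part began at a mean of 78.9. The 0 of 4 is thus partly set by how the parts were made. The median change of all probe sets was -0.24 in the third part and -0.36 in the fourth.

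**Figure D4:**
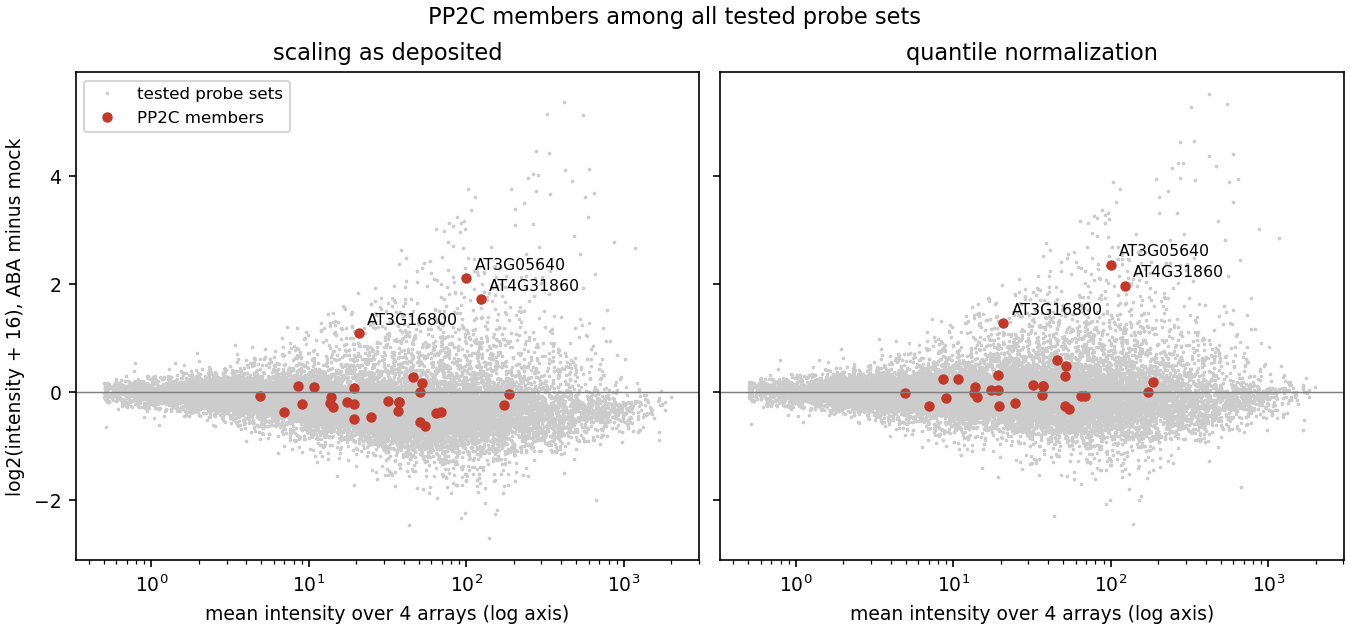
Change on the log2(intensity + 16) scale, ABA minus mock, against mean intensity over the 4 arrays (log axis) for the tested probe sets with a mean above 0.5 (grey) and the 29 members (red), as deposited (left) and after quantile normalization (right). AT3G05640, AT4G31860 and AT3G16800 lie near the upper edge of the grey points, with some grey points above them, and the other 26 members lie between -0.62 and 0.29 as deposited.

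Among the members that did not pass, AT2G30020 of clade B, known as AP2C1, encodes a phosphatase of stress-activated MAP kinases. It read 47.2 and 56.0 in ABA shoots, against 32.3 and 47.3 in mock shoots. The lowest ABA array and the highest mock array were nearly equal, and the log2 change of 0.29 had a 95% interval of -0.33 to 0.91 (limma adjusted p = 0.375). After quantile normalization it was 0.59 (limma adjusted p = 0.162), and under spike scaling it was -0.08. The second clade B gene, AT1G67820, read 15.05 and 15.8 in ABA shoots, against 20.4 and 18.7 in mock shoots, and did not pass (log2 change -0.18, limma adjusted p = 0.0718, and 0.05 after quantile normalization).

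POL, the POLTERGEIST gene of clade C (AT2G46920), is known for keeping stem cells in shoot and flower meristems. It read 8.39 and 5.41 in ABA shoots, against 6.51 and 15.9 in mock shoots. The groups overlapped around the noise level, and the log2 change was -0.23 (SE 0.23, limma adjusted p = 0.554), or -0.11 after quantile normalization. AT3G12620, the second measured clade D gene, read 29.6 and 38.2 in ABA shoots, against 45.7 and 35.3 in mock shoots. These groups overlapped as well, and the log2 change of -0.18 was 0.12 after quantile normalization.

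Clade F, with 7 measured genes, had 1 fall and 6 genes that did not pass. PIA1 (AT2G20630), named as a PP2C induced by the bacterial effector AvrRpm1, read 205 and 161 in ABA shoots, against 193 and 182 in mock shoots. Its log2 change was -0.04 with a 95% interval of -0.51 to 0.43, and it was 0.19 after quantile normalization. AT1G78200 read 49.2 and 52.6 in ABA shoots, against 53.0 and 49.4 in mock shoots, a change of -0.01 with an interval of -0.17 to 0.16. After quantile normalization this gene stood at 0.30 (limma adjusted p = 0.0583). AT5G53140 varied most between replicates, at 123 and 193 in ABA shoots, against 207 and 167 in mock shoots. Its log2 change of -0.24 had an interval of -1.18 to 0.69, and after quantile normalization it was -0.0031. AT3G15260, AT4G28400 and AT5G10740 had both ABA arrays below both mock arrays, as did 50.8% of all probe sets. None of these genes passed, with changes of -0.37, -0.19 and -0.21. After quantile normalization these were -0.07, 0.11 and 0.03, so the sign turned in AT4G28400 and AT5G10740.

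The 3 clade H genes did not pass as deposited or after quantile normalization, and did not share a direction as deposited. AT1G68410 was called higher under median centring (limma adjusted p = 0.0453). AT1G47380 read 15.8 and 11.2 in ABA shoots, against 24.9 and 25.7 in mock shoots (log2 change -0.49, limma adjusted p = 0.0663, and -0.26 after quantile normalization). AT1G68410 read 53.6 and 58.8 in ABA shoots, against 44.3 and 51.5 in mock shoots (log2 change 0.18, limma adjusted p = 0.252, and 0.48 with a limma adjusted p of 0.0724 after quantile normalization). In both genes the groups did not overlap, in opposite directions. Over all probe sets, 50.8% had ABA arrays below and 15% above the mock arrays. The changes of AT1G68410 and AT1G47380, the highest and lowest of the 3, differed by 0.67. With groups apart in opposite directions, the exact two-sided permutation p of 0.333, the smallest possible, was fixed beforehand and gives no support. The size of the difference followed the added constant, and with 1 in place of 16 the changes were 0.23 and -0.88. AT1G09160 had a change of -0.16, which was 0.12 after quantile normalization. In clade G, AT3G51470 and AT3G62260 had changes of -0.09 and 0.08 with overlapping groups, and 0.09 and 0.31 after quantile normalization. AT2G20050, without a clade here, had a change of -0.20 that did not pass and was -0.01 after quantile normalization.

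Over the 20 members that did not pass, the log2 changes ran from -0.49 to 0.29. In 18 of them the 95% interval as deposited lay within -1 to 1 on the log2(intensity + 16) scale, with AT1G16220 and AT5G53140 outside it. For dim genes such bounds stand for a larger fold in intensity, so they do not set a limit on the fold there. Counting groups rather than tests, both ABA arrays lay below both mock arrays in 13 members (44.8%, against 50.8% of all probe sets) and above them in 4 (13.8%, against 15%).

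Across the 29 members, which are genes and not independent replicates, log2 values correlated at r = 0.978 between the ABA replicates and r = 0.978 between the mock replicates. Between ABA and mock arrays r was 0.749 to 0.782 over the members and 0.944 to 0.952 over all probe sets. For the 26 members not called higher, which were chosen by their values, r between ABA and mock arrays was 0.948 to 0.962. All these correlations share the differences in brightness between probe sets.

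Of 10 further PP2C loci outside clade A that were not among the 60, 4 had a named probe set. Of these 1 was called lower (25%, against 19.6% of all probe sets). AT2G40860 read 10.2 and 7.45 in ABA shoots, against 23.5 and 21.0 in mock shoots (log2 change -0.62, limma adjusted p = 0.0360, and -0.43 with a limma adjusted p of 0.114 after quantile normalization). The second ABA value of AT2G40860 lay below the noise level of its array (8.76). The other 3, AT3G17250, AT3G27140 and AT3G63320, had changes of -0.14, -0.10 and -0.41 that did not pass. AT3G27140 was above the noise level on 1 array. The lists of the surrounding pathways had 0 named members: 9 clade A phosphatases, 14 ABA receptors, 10 SnRK2 kinases, 5 ABF-type transcription factors, 11 plasma membrane proton pumps, 6 SAUR19-type genes, 3 MAP kinases, 2 thylakoid kinases and 4 stem cell genes were not analysed here.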

How the data were processed

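Per the labels, the arrays were 1-colour and carried biotin-labelled RNA. The authors deposited processed intensities, 1 per probe set and array, whose software, background correction and scaling were not given in the sources used here. Some values lie below 0, so background had been subtracted. Arrays give no read depth, and 2 per group limit the precision. After 287 control sets had been left out, 19371 probe sets were tested. Genes were named through the array's public annotation, updated to TAIR10.1 symbols by gene identifier or locus code. No coordinates are printed, since the build behind the probe sets is unknown here.

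Negative intensities were raised to 0 before the log2(intensity + 16) transform. The fit used lmFit and eBayes of limma 3.58.1 (R 4.3.3) on all 4 arrays with treatment as its 1 term, two-sided tests, Benjamini-Hochberg adjustment over all tested probe sets and a threshold of 0.05. It was checked on simulated data. The 95% intervals are limma's and are not adjusted for the number of genes. Spike scaling used 1 factor per array, the median over 9 spiked hybridisation control sets.

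The labels call the replicates biological. The members, clades, lists and alternatives were chosen with earlier results of these data known. The naming rule gave values on every array to the growth-regulating clade E loci, to members past the threshold under both scalings and to the largest change in each clade. Other members were chosen after their values were seen.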

Additional observations from a re-analysis of the deposited data

How the results depend on the processing

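The rises of AT3G05640 and AT3G16800 kept their direction in all alternatives run and stayed past the threshold except with the replicate block or with 1 array left out. The counts of members called, 3 higher and 6 lower, became 3 and 1 after quantile normalization, 4 and 1 after median centring, 3 and 14 under spike scaling, and 6 and 1 of 27 after quantile normalization with a filter that kept probe sets above the 40th percentile of mean intensity (14.8% and 19.8% of the probe sets kept). AT2G30020, AT1G78200 and AT1G68410 were the further members called higher with quantile normalization and the filter, and AT1G68410 also under median centring. That filter without quantile normalization gave 3 and 8 of 27 members (9.15% and 50% of the probe sets kept). AT3G16800 passed the filter only through its ABA values (28.5 and 39.5). Its mock values (6.75 and 8.09) lay below the cut, so settings with the filter give no separate support for its rise. The median change of -0.18 was -0.081 with a constant of 64, 0.048 after quantile normalization, 0.022 after median centring, -0.47 under spike scaling and 0.089 with quantile normalization and the filter. A constant of 1 called the same numbers of members (3.55% higher and 15.4% lower of all probe sets), as did 64 (3.62% and 19.4%). A prior variance that follows intensity gave 3 and 5 (3.9% and 17.7%). Averaging the probe sets of a gene could not move a member, since each has 1 probe set.

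Replicate numbers are shared by the groups, but nothing in the labels ties arrays of 1 number together, and deviations of same-numbered arrays from their group means correlated at 0.039 over probe sets. With the replicate block 0 of the 19371 probe sets were called in limma, so 0 members were higher and 0 lower. The block cannot alter the size of a change here, since both replicate numbers occur in each group. The changes were thus again 2.11 for AT3G05640 (limma adjusted p = 0.0743) and 1.09 for AT3G16800 (limma adjusted p = 0.0753). With quantile normalization and the replicate block these were 2.36 and 1.28 (limma adjusted p = 0.118 for both). The counts there were 0 and 0 (0 of all probe sets), and the median was 0.048. Leaving out ABA replicate 1, ABA replicate 2, mock replicate 1 or mock replicate 2 left no member and no other probe set past the threshold. In these fits AT3G05640 stood at 1.99 to 2.24, AT3G16800 at 0.93 to 1.25 and the median at -0.21 to -0.13. These fits have fewer residual degrees of freedom. Quantile normalization with the filter or the block was chosen after seeing the data.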
